A study of Mus musculus with 72 samples.

Results

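The genes described here are the X-linked genes whose start lies between 35 and 65 Mb of the mouse X chromosome (mm10) and that are listed in at least 1 of the study's tables of allelic ratios, except Nkap, Cul4b, Phf6, Firre and 6720401G13Rik. They number 52 of the 410 listed X-linked genes. All 52 are listed for the line iXist-ChrX_Dom (of 246 genes) and 50 for the line iXist-ChrX_Cast (of 399 genes), with Mcts1 and Tenm1 listed for iXist-ChrX_Dom only. The rule uses position and no measured difference, apart from the names left out. Listing by the study itself required enough allele-assigned fragments and output from both alleles before Xist was induced. Earlier results of these data were known when the choice was made. The first starts at 35.89 Mb, and the widest gap between starts, of 5.28 Mb, lies between Tenm1 and Smarca1.

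The values come from chromatin-associated RNA sequencing (ChrRNA-seq), which samples the RNA in the chromatin fraction of the cell, much of it nascent and unspliced, in 72 libraries. Both lines are F1 hybrid female (XX) mouse embryonic stem cells (mESCs) of 129/Sv and CAST/EiJ origin, in which an added promoter under doxycycline control drives Xist from a single X chromosome. That chromosome becomes the inactive X (Xi), carrying the 129-derived Mus musculus domesticus allele in iXist-ChrX_Dom and the Mus musculus castaneus allele in iXist-ChrX_Cast, while the other X stays active (Xa). Wild type (WT) here means each line with its inducible Xist and with SmcHD1 intact (labels A11B2 for iXist-ChrX_Dom and C7H8 for iXist-ChrX_Cast). SmcHD1 knockout (KO) cells were CRISPR-Cas9 clones of the same lines, A3 from iXist-ChrX_Dom and D5 and G6 from iXist-ChrX_Cast, so that each is a single clone. Uninduced libraries were analysed for the KO clones only, and all other libraries were collected after 2, 3, 5, 7, 15, 21, 35 or, in iXist-ChrX_Dom, 52 days of Xist induction during differentiation towards neural precursor cells (NPCs). At day 15 and later each genotype or clone had 1 library per day, so that the late groups pool days (4 WT and 4 KO libraries in iXist-ChrX_Dom, 3 WT and 6 KO in iXist-ChrX_Cast). The labels do not say whether replicates came from separate cultures. The paper's legends describe the values of days 2 to 7 as averages over repeated time course experiments, and later ones as individual samples. P-values measure the spread between these samples, part of which may be technical.

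Xist RNA coats the chromosome it is made from and brings in proteins that switch off transcription. They act through co-repressors and histone deacetylation and, in parallel, through Polycomb marks, and the structure of the chromosome changes as well. SmcHD1 is a protein related to the SMC family that joins the Xi late, and in its absence some X-linked genes of the embryo and of cultured cells are known to be read from the Xi again, while methylation of their CpG island promoters is reduced. The interval between these positions holds housekeeping genes beside genes of development such as the glypicans, and Xist itself lies further along the chromosome.

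The measure throughout is the Xi share, the fraction Xi/(Xi+Xa) of a gene's allele-assigned fragments that carry the Xi allele, where equal output of both alleles gives a share near the middle of its range and complete silencing gives 0. A library held 9344054 to 31216487 fragments in iXist-ChrX_Dom (13211298 to 31107643 in iXist-ChrX_Cast), and the median gene of the interval had 162 to 304 and 179 to 485.5 allele-assigned fragments per library. Smchd1 RNA was counted in the KO libraries throughout (217.5 to 410.6 RPM, fragments scaled to a common library total, at day 15 and later in A3, against 382.5 to 647.8 in WT), so its level is no check of the knockout. Xist RNA was 131.3 to 1009.2 RPM in uninduced libraries and 18182.4 to 86545.7 RPM at day 15 and later. Among the NPC marker genes, Sox1 was at 0 in every late group, Pax6 reached at most 9.386 RPM, while Vim stood at 88.48 to 731.746 RPM. Fibroblast collagens and related fibroblast markers, 6 genes in all, summed to 241.46 to 16026.87 RPM in late libraries. Their median sum was higher in KO than in WT (5562.84 against 2286.51 RPM in iXist-ChrX_Cast, 3071.47 against 2099.6 RPM in iXist-ChrX_Dom). In late iXist-ChrX_Cast libraries the 6 NPC markers summed to a median of 321.41 RPM in KO (169.82 to 775.58) and 810.43 RPM in WT (129.29 to 913.9), and the 4 endoderm markers to 55.16 RPM (25.58 to 146.31) and 128.18 RPM (90.21 to 151.38). In iXist-ChrX_Dom the NPC sums were 368.4 and 355.53 RPM and the endoderm sums 32.03 and 26.69 RPM. The fibroblast markers were read from both alleles of the hybrid (Cast share 0.4893 to 0.5665 in 17 late replicates, against 0.4982 to 0.5105 over all autosomal genes). The part of these cell types in the late values below was not tested. In such bulk libraries, fewer cells of a type and less RNA per cell cannot be told apart.

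Promoter sequence is shown for 3 genes that mark the range of behaviour described below. Zbtb33 and Utp14a had high Xi shares in late KO cells, and Smarca1 had among the shortest half-times of silencing in both lines. Each line gives the 250 bases before the annotated start, 5′ to 3′ on the strand of the gene, from RefSeq on GRCm38.p6, with CG dinucleotides in capitals. They lie at chrX:38189543-38189792 (plus strand, Zbtb33), chrX:48256684-48256933 (plus strand, Utp14a) and chrX:47892614-47892863 (minus strand, Smarca1).
Zbtb33: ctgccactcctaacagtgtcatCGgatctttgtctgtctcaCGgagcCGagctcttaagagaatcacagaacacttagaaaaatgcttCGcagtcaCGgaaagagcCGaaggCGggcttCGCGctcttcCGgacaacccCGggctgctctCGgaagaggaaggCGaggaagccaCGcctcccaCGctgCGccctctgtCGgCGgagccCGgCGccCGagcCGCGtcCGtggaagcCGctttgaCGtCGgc
Utp14a: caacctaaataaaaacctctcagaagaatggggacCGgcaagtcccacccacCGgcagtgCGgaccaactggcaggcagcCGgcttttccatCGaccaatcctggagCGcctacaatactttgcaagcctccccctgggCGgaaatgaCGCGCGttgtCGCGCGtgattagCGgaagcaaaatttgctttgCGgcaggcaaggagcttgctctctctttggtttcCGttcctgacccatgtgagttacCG
Smarca1: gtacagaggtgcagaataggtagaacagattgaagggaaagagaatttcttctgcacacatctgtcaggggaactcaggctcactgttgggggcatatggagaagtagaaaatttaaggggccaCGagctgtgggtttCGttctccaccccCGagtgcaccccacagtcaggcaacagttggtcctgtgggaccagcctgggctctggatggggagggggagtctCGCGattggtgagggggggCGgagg
The stretch before Zbtb33 held 27 CpG at 62.4% GC, that before Utp14a 17 CpG at 56.0% GC, and that before Smarca1 6 CpG at 56.4% GC. Of the 52 genes, 44 matched a RefSeq promoter window of 300 bases (250 before and 50 after the start). These windows held 0 to 35 CpG (median 13.5, against 7 over all 32851 windows of the mouse table), and 75% of them held at least 10 CpG, against 43.5% of all windows. The listed genes passed a filter on fragments and the windows of the mouse table did not. The comparison is thus not matched for expression, and nothing about the interval is read from it. Among genes with short half-times, Smarca1 held 9 CpG in this window, Gm364 10 and Gpc3 30. The letters CCGGAAG, searched on both strands as the core of an ETS-family site, occurred in 2 of the 44 (4.5%, against 8.9% of all windows). Across genes the CpG count and the WT half-time described below had a Spearman correlation of 0.1742 in iXist-ChrX_Dom (44 genes) and 0.3289 in iXist-ChrX_Cast (42 genes), a description over genes that share their libraries. With the late KO minus WT difference, also described below, the CpG count had correlations of 0.1589 in iXist-ChrX_Dom and 0.2234 in iXist-ChrX_Cast. DNA methylation was not analysed here.

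Silencing of the interval was traced in WT cells, with the uninduced libraries of the KO clones as the starting point. In uninduced libraries the mean Xi share of the genes ran from 0.314 to 0.779 in iXist-ChrX_Dom (median 0.518, n = 2). In iXist-ChrX_Cast it ran from 0.246 to 0.597 (median 0.428, n = 3). The study's filter left out genes that were strongly monoallelic in uninduced mESCs, so reading of both alleles followed from the listing. After 2 days the median over the interval was 0.187 and 0.152 in the 2 WT replicates of iXist-ChrX_Dom and 0.112 and 0.118 in those of iXist-ChrX_Cast. By day 7 it was 0.0139 and 0.014 in iXist-ChrX_Dom and 0.00667 to 0.0162 in the 3 replicates of iXist-ChrX_Cast. Late WT libraries of iXist-ChrX_Dom had medians of 0.00168 to 0.00632, and those of iXist-ChrX_Cast 0.00109 to 0.00408. Over the first week the median of the interval was below that of the other listed X-linked genes in each of 16 replicates of iXist-ChrX_Dom and in 26 of 27 of iXist-ChrX_Cast, KO included.

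**Figure D1:**
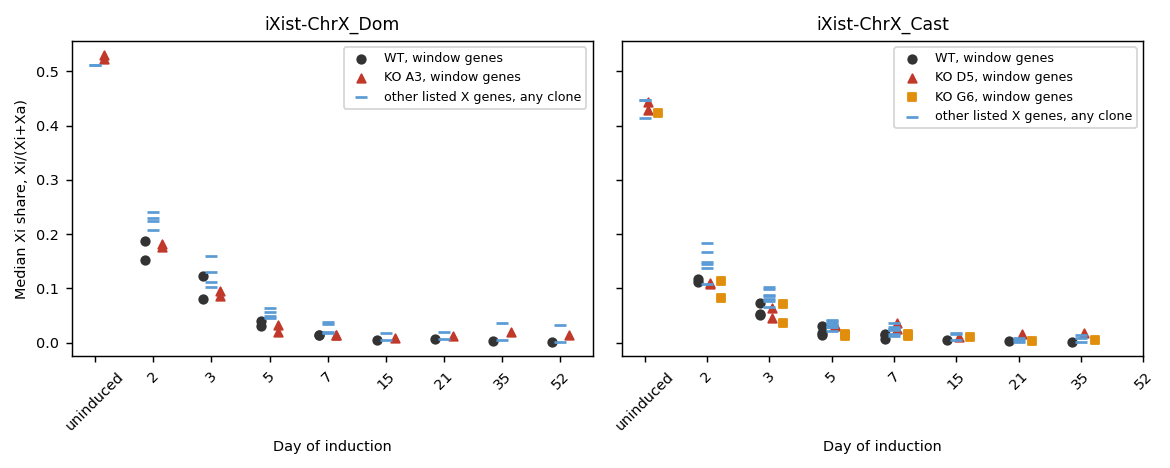
Median Xi share, Xi/(Xi+Xa), of the genes between 35 and 65 Mb (points, 1 per replicate, by clone) and of the other listed X-linked genes (dashes, 1 per replicate) against the day of induction, with days as equal steps. The interval's medians start above 0.4, are below the dashes at day 2 in iXist-ChrX_Dom and lie under 0.04 in every clone from day 7 on.

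A half-time was fitted for each gene from the WT shares of days 2, 3, 5 and 7 and the uninduced mean, as an exponential decay to 0. It is given in days with the standard error (SE) of the fit. Because the decay runs to 0, a gene that keeps some Xi share is given a longer half-time. Over the interval its median was 1.33 days in iXist-ChrX_Dom (quartiles 0.922 and 1.80) and 1.08 days in iXist-ChrX_Cast (0.877 and 1.38). The other listed genes had medians of 1.63 and 1.41 days. Among windows of the chromosome, genes below 35 Mb had the longest medians (2.06 days in iXist-ChrX_Dom, 1.92 in iXist-ChrX_Cast), those from 65 to 94 Mb had 1.37 and 1.38 days, and those of the next window, which begins at 94 Mb, had 1.07 and 1.10 days, shorter than the interval in iXist-ChrX_Dom and close to it in iXist-ChrX_Cast. Of the 52 genes, 14 had half-times under 1 day in iXist-ChrX_Dom and 21 of 50 did in iXist-ChrX_Cast, and all 14 were among the 21. The order of the genes was similar in the lines (Spearman correlation 0.678 over 50 genes, which share annotation and the uninduced level of the KO clones within a line), and this is a description across genes with no test.

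The short half-times all lay on the far side of the gap. The 14 genes from Dock11 to Tenm1 (starts 35.8888 to 42.5324 Mb) had a median half-time of 1.57 days in iXist-ChrX_Dom, and none was below 1 day, with the shortest at 1.13 days. The 38 genes from Smarca1 on (starts from 47.8094 Mb) had a median of 1.19 days, and 14 were below 1 day. In iXist-ChrX_Cast the medians were 1.37 days (12 genes, shortest 1.01) and 0.966 days (38 genes, 21 below 1 day). Where the gap divides the genes was seen after their values were known, and the difference was not tested.

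**Figure D2:**
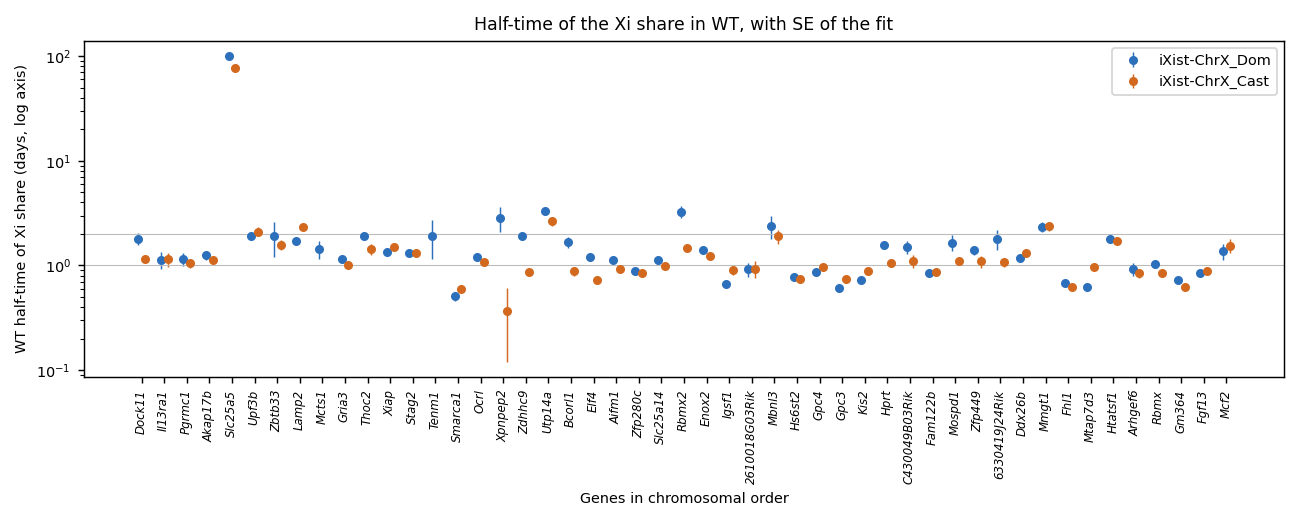
WT half-time of the Xi share in days (log axis) for the genes of the interval reported singly, in chromosomal order, in iXist-ChrX_Dom and iXist-ChrX_Cast, with the SE of the fit as bars (none is drawn for Slc25a5) and grey lines at 1 and 2 days. Slc25a5 stands apart at the fit's limit of 100 days and at 77.4 days, and Smarca1, Gpc3, Fhl1 and Gm364 lie below 1 day in both lines.

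Genes of the cell surface and of development had the shortest half-times as a group. Their 8 members had a median of 0.810 days in iXist-ChrX_Dom and their 7 listed members 0.893 days in iXist-ChrX_Cast. Gpc3, a glypican (a proteoglycan of the cell surface that binds growth factors), spans chrX:52272426-52613974 on the minus strand, and was the most deeply read gene of the interval. Its WT Xi share was 0.0601 and 0.039 at day 2 in iXist-ChrX_Dom and 0.0681 and 0.0687 in iXist-ChrX_Cast, and 0.00201 and 0.00431 at day 7 in iXist-ChrX_Dom. Every replicate had thus left the uninduced range (0.498 and 0.504 in A3) by day 2. The half-time was 0.615 ± 0.0263 days (SE of the fit) in iXist-ChrX_Dom and 0.735 ± 0.0145 days in iXist-ChrX_Cast. Gpc4, the neighbouring glypican, had 0.868 and 0.962 days, and Hs6st2, an enzyme that adds sulfate to heparan chains, had 0.772 and 0.744 days. Fhl1, a LIM-domain protein of muscle and other tissues, had 0.681 ± 0.0485 and 0.627 ± 0.0272 days. Igsf1, an immunoglobulin-domain membrane protein, had 0.669 ± 0.0319 days in iXist-ChrX_Dom and 0.897 ± 0.0826 in iXist-ChrX_Cast. Tenm1, a teneurin listed for iXist-ChrX_Dom only, was at the long end of the group at 1.93 ± 0.778 days, an imprecise fit.

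Genes of chromatin and transcription had half-times of 0.509 to 1.90 days in iXist-ChrX_Dom and 0.595 to 1.58 days in iXist-ChrX_Cast. Smarca1, an ATPase of ISWI chromatin remodellers (chrX:47809369-47892552, minus strand), had the shortest half-time of all in iXist-ChrX_Dom, 0.509 ± 0.0519 days, and 0.595 ± 0.0396 days in iXist-ChrX_Cast. Its WT Xi share at day 2 was already 0.0164 and 0.04 in iXist-ChrX_Dom (1 of 61 and 2 of 50 fragments) and 0.0533 and 0.0357 in iXist-ChrX_Cast. At day 7 no Xi fragment was counted in iXist-ChrX_Dom (0 of 72 and 0 of 51), and 1 fragment was counted over the 3 replicates of iXist-ChrX_Cast. Elf4, an ETS-family transcription factor, had 0.727 ± 0.0444 days in iXist-ChrX_Cast and 1.21 days in iXist-ChrX_Dom. Stag2, a cohesin subunit, had 1.32 and 1.31 days, and Zbtb33, the methyl-CpG binding zinc finger protein Kaiso, had 1.90 and 1.58 days. The group's median was 1.27 days in iXist-ChrX_Dom and 0.986 days in iXist-ChrX_Cast.

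Genes of RNA processing had the longest median, 1.91 days over 8 genes in iXist-ChrX_Dom and 1.70 days over 7 genes in iXist-ChrX_Cast. Utp14a, part of the machinery that processes ribosomal RNA (chrX:48256933-48282449, plus strand), had 3.33 ± 0.198 and 2.65 ± 0.253 days. Its WT Xi share in iXist-ChrX_Dom was 0.462 and 0.427 at day 2, 0.412 and 0.352 at day 3, 0.228 and 0.225 at day 5 and 0.147 and 0.133 at day 7, lower at each day than in any replicate of the sampled day before. Rbmx2, an RNA-binding protein of the spliceosome, had 3.25 ± 0.435 days in iXist-ChrX_Dom but 1.47 ± 0.127 days in iXist-ChrX_Cast. Upf3b, a factor of nonsense-mediated decay, had 1.92 and 2.11 days. Thoc2, a subunit of the THO complex of mRNA export, had 1.90 and 1.44 days. Htatsf1, a splicing and elongation factor, had 1.81 and 1.70 days. Mbnl3, a muscleblind-like splicing regulator, had 2.36 ± 0.583 days in iXist-ChrX_Dom and 1.89 days in iXist-ChrX_Cast. Rbmx, which encodes the nuclear ribonucleoprotein hnRNP G, was the fastest of the group at 1.04 and 0.842 days. Rbmx and Slc25a5 have near-identical copies elsewhere in the genome and Utp14a has a retrogene, Utp14b, so their shares are uncertain to the extent that the counting could mix such reads.

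The remaining groups lay between these. Membrane traffic and signalling genes had medians of 1.51 and 1.13 days (10 genes), within which Mmgt1, a subunit of the endoplasmic reticulum membrane complex, had 2.35 ± 0.256 and 2.36 ± 0.235 days, and Lamp2, a lysosomal membrane protein, had 1.71 and 2.32 ± 0.134 days. Genes of cell death and metabolism had 1.48 and 1.15 days (4 genes), with Hprt, the purine salvage enzyme, at 1.56 and 1.06 days and Xiap, an inhibitor of caspases, at 1.33 and 1.49 days. Xpnpep2, a membrane aminopeptidase with few fragments, was among the longest in iXist-ChrX_Dom (2.86 ± 0.752 days) and the shortest in iXist-ChrX_Cast (0.364 ± 0.243 days). The 9 other and noncoding genes had medians of 0.921 and 0.971 days, with Mtap7d3, a microtubule-associated protein, at 0.618 ± 0.0318 and 0.971 days and Gm364 at 0.730 and 0.625 ± 0.0502 days. Mitochondrial, transporter and ion exchange genes had medians of 1.33 and 1.16 days (5 genes).

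Slc25a5, which encodes an ADP/ATP carrier of the inner mitochondrial membrane (chrX:36795651-36798806, plus strand), differed from every other gene of the interval in that its Xi share stayed high. In iXist-ChrX_Dom it was 0.373 and 0.405 in the uninduced libraries and 0.407, 0.396, 0.365 and 0.411 in WT at days 15, 21, 35 and 52. In iXist-ChrX_Cast it was 0.541, 0.61 and 0.639 in the uninduced libraries and 0.5, 0.448 and 0.496 in WT at days 15, 21 and 35. The late WT values overlapped the uninduced ones in iXist-ChrX_Dom and lay below them in iXist-ChrX_Cast. The half-time reached the limit of 100 days in iXist-ChrX_Dom and was 77.4 ± 82.7 days in iXist-ChrX_Cast, so none could be determined. Its neighbours in the list, Akap17b and Upf3b, whose start lies 296.2 kb further on, had late WT means of 0 and 0.0082 in iXist-ChrX_Dom.

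Late WT cells kept a mean Xi share over 0.05 at 7 of 52 genes in iXist-ChrX_Dom (55 of 246 of all listed genes). In iXist-ChrX_Cast they did so at 4 of 50 (26 of 399). The mean was below 0.02 at 42 and 43 genes of the interval. After Slc25a5, the highest means in iXist-ChrX_Dom were Rbmx2 with 0.133 ± 0.0279 (SD, n = 4), Mbnl3 with 0.123 ± 0.0675, 6330419J24Rik with 0.0926 ± 0.0813 and Utp14a with 0.0870 ± 0.0609. In iXist-ChrX_Cast they were Utp14a with 0.107 ± 0.0271 (SD, n = 3), Lamp2 with 0.0674 ± 0.0176, Mbnl3 with 0.0509 ± 0.05 and Mcf2, a guanine nucleotide exchange factor, with 0.0471 ± 0.0503. Lamp2, at 805 to 4141 fragments a library, was above 0.05 in each late WT library of iXist-ChrX_Cast (0.0543, 0.0605 and 0.0874), and in iXist-ChrX_Dom it was 0.0147 or less. Across genes, half-time and late WT share had a Spearman correlation of 0.514 in iXist-ChrX_Dom and 0.421 in iXist-ChrX_Cast, a description over genes measured in the same lines.

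The comparison of KO with WT cells asked whether the Xi alleles of these genes stayed silent without SmcHD1. At day 15 and later, few genes of the interval had KO shares far from WT. Zbtb33, Utp14a and Mmgt1 were more than 0.05 above WT in both lines, while Rbmx2, Thoc2, Htatsf1 and 6330419J24Rik were in iXist-ChrX_Dom only and Slc25a5 in iXist-ChrX_Cast only. With limma over all listed genes and day as a factor, 0 of 49 genes of the interval passed an adjusted p of 0.05 in iXist-ChrX_Dom, where 8 of all 238 genes tested did (3.36%). At an unadjusted p under 0.05 there were 11 genes of the interval. Here and below, a count at this level without one over all genes beside it covers the interval alone. Nothing about the interval is read from such a count. In iXist-ChrX_Cast 2 of 49 passed, Utp14a and Mmgt1, both higher in KO, where 28 of all 391 genes did (7.16%), and 7 were under 0.05 unadjusted. The share of the interval's genes that passed was below that of all genes in both lines, and with counts this small nothing is read from the gap. In iXist-ChrX_Dom 3 genes, among them Kis2 and Gm364, and in iXist-ChrX_Cast Igsf1 had no allelic fragment in at least 1 late library and were not tested.

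The KO minus WT difference had a median of 0.00715 over the interval in iXist-ChrX_Dom, against 0.0137 over all genes tested, and 0.00611 against 0.00641 in iXist-ChrX_Cast. It was above 0 for 41 of 49 genes in iXist-ChrX_Dom (191 of 238 of all genes) and 42 of 49 in iXist-ChrX_Cast (317 of 391). The upward direction was thus about as common over all listed genes. The difference was above 0.05 for 7 (14.3%, against 29.4% of all genes) and 4 (8.16%, against 17.4%), and within 0.02 of 0 for 35 and 40. The direction was up in both lines for 34 of the 46 genes tested in both. Of the 10 genes with the largest differences in each line, 8 were shared: Slc25a5, Upf3b, Zbtb33, Thoc2, Utp14a, Rbmx2, Mmgt1 and Htatsf1. Every late KO library lay above every late WT library for 10 of 49 genes in iXist-ChrX_Dom (26.5% of all genes tested) and 6 of 49 in iXist-ChrX_Cast (21.5%), and 5 were in both, Zbtb33, Utp14a, Rbmx2, Mmgt1 and Htatsf1.

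**Figure D3:**
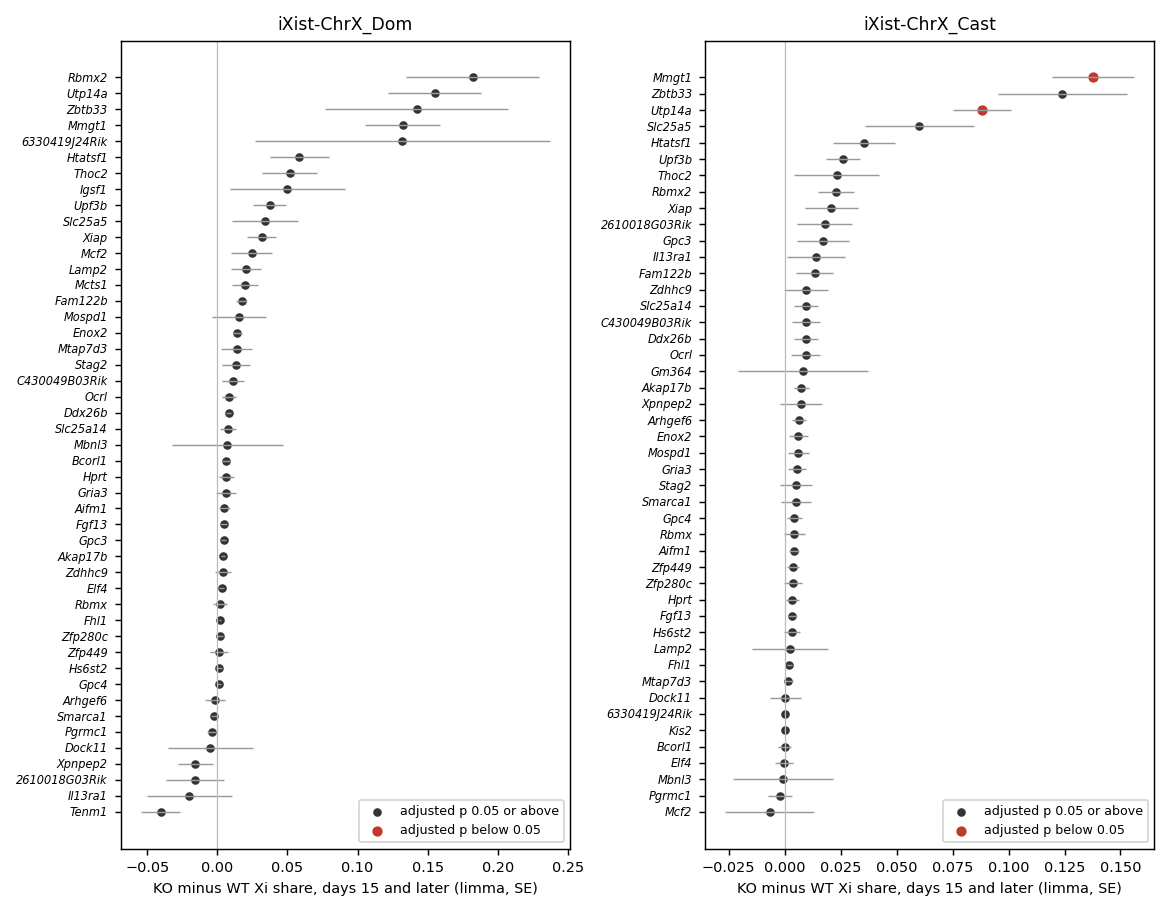
KO minus WT Xi share at day 15 and later for the genes of the interval tested and reported singly, with the limma standard error as bars, ordered by size in each line and coloured by adjusted p. Rbmx2, Utp14a, Zbtb33, Mmgt1 and 6330419J24Rik lie above 0.13 in iXist-ChrX_Dom with none past the threshold, Mmgt1 and Utp14a pass it in iXist-ChrX_Cast, and most genes lie near 0.

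Mmgt1 (chrX:56585511-56597919, minus strand) was nearly silent in late WT cells and read from the Xi in late KO cells of all 3 clones. In iXist-ChrX_Dom WT its Xi share was 0.0115 at day 15 (5 of 436 fragments), 0.0106 at day 21 (4 of 376), 0.00325 at day 35 (1 of 308) and 0 at day 52 (0 of 297, which allows a share of up to 0.0101). In A3 it was 0.130, 0.0994, 0.122 and 0.203 on the same days, the last from 27 of 133 fragments (95% Wilson interval 0.143 to 0.279). The iXist-ChrX_Cast shares were 0.0140, 0.0124 and 0.00532 in WT, 0.144, 0.156 and 0.199 in D5 and 0.136, 0.114 and 0.140 in G6 at days 15, 21 and 35. No KO value overlapped a WT value in either line, and the lowest KO share was far above the highest WT share. The difference was 0.132 ± 0.0268 (SE) in iXist-ChrX_Dom, with an adjusted p of 0.0990 by limma, and 0.138 ± 0.0182 in iXist-ChrX_Cast, with an adjusted p of 0.00788. In iXist-ChrX_Cast that call was lost without any 1 of the 3 WT libraries (differences of 0.124 to 0.145), and with D5 alone (0.156) or G6 alone (0.120) against WT.

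Over the time course the WT and KO values of Mmgt1 ran together at first. At days 2 and 3, A3 had 0.314, 0.281, 0.194 and 0.206 against 0.336, 0.285, 0.206 and 0.158 in WT. At day 7, A3 had 0.0851 and 0.142 against 0.0477 and 0.0399, D5 had 0.140 and 0.125, G6 had 0.095 and 0.119, and iXist-ChrX_Cast WT had 0.0491, 0.0636 and 0.0820. Every KO replicate was thus above every WT replicate of its line at day 7. The lowest late KO share was above the lowest KO share of day 7, whereas late WT shares were below every WT value of day 7. The KO effect at day 15 and later differed from that at days 2 and 3 by 0.129 ± 0.0334 in iXist-ChrX_Dom (limma interaction, adjusted p = 0.0437) and by 0.159 ± 0.0290 in iXist-ChrX_Cast (adjusted p = 0.00113). In iXist-ChrX_Dom the call was lost in 12 of 18 alternatives, each without 1 library of WT or A3, with differences of 0.106 to 0.135.

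Utp14a was read from the Xi in late WT cells and more so in KO cells. In iXist-ChrX_Dom WT its Xi share was 0.175, 0.0792, 0.0546 and 0.0394 at days 15, 21, 35 and 52, and in A3 it was 0.260, 0.220, 0.198 and 0.289, from 380 to 998 fragments. In iXist-ChrX_Cast it was 0.0762, 0.126 and 0.119 in WT, 0.165, 0.212 and 0.228 in D5 and 0.142, 0.206 and 0.220 in G6. The WT values of iXist-ChrX_Dom were lower at each later day, which those of iXist-ChrX_Cast were not, and every KO value lay above every WT value of its line. The difference was 0.155 ± 0.0332 in iXist-ChrX_Dom (limma, adjusted p = 0.0995) and 0.0882 ± 0.0129 in iXist-ChrX_Cast (adjusted p = 0.0129). As for Mmgt1, the call in iXist-ChrX_Cast was lost without any 1 WT library (differences of 0.0797 to 0.0938) or with D5 alone (0.0945) or G6 alone (0.0819). Set against days 2 and 3, the late KO effect was larger by 0.164 ± 0.0404 in iXist-ChrX_Dom (limma interaction, adjusted p = 0.0381) and by 0.1002 ± 0.0181 in iXist-ChrX_Cast (adjusted p = 0.00113). Without 1 library, the first of these was lost in 10 of 18 alternatives (0.133 to 0.170). Mmgt1 and Utp14a were the only 2 genes of the interval to pass this test, of 49 in each line, where 18 of 238 (7.56%) and 48 of 391 (12.3%) of all genes passed.

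In the D5 libraries of iXist-ChrX_Cast, Utp14a went from 0.315 and 0.346 uninduced to 0.0654 and 0.0937 at day 5, and was 0.165, 0.212 and 0.228 late. In G6 the corresponding values were 0.323, then 0.0741 and 0.109, then 0.142, 0.206 and 0.220. Both clones thus had higher late values than at day 5, as did WT at days 21 and 35 against its own day 5 (0.0519, 0.0677 and 0.114). Between neighbours, Zdhhc9, a palmitoyltransferase that starts 85 kb before Utp14a, and Bcorl1, a transcriptional corepressor that starts 84.4 kb after it, had late differences of 0.00397 and 0.00626 in iXist-ChrX_Dom. High late KO shares at Utp14a were therefore not matched at the genes beside it.

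**Figure D4:**
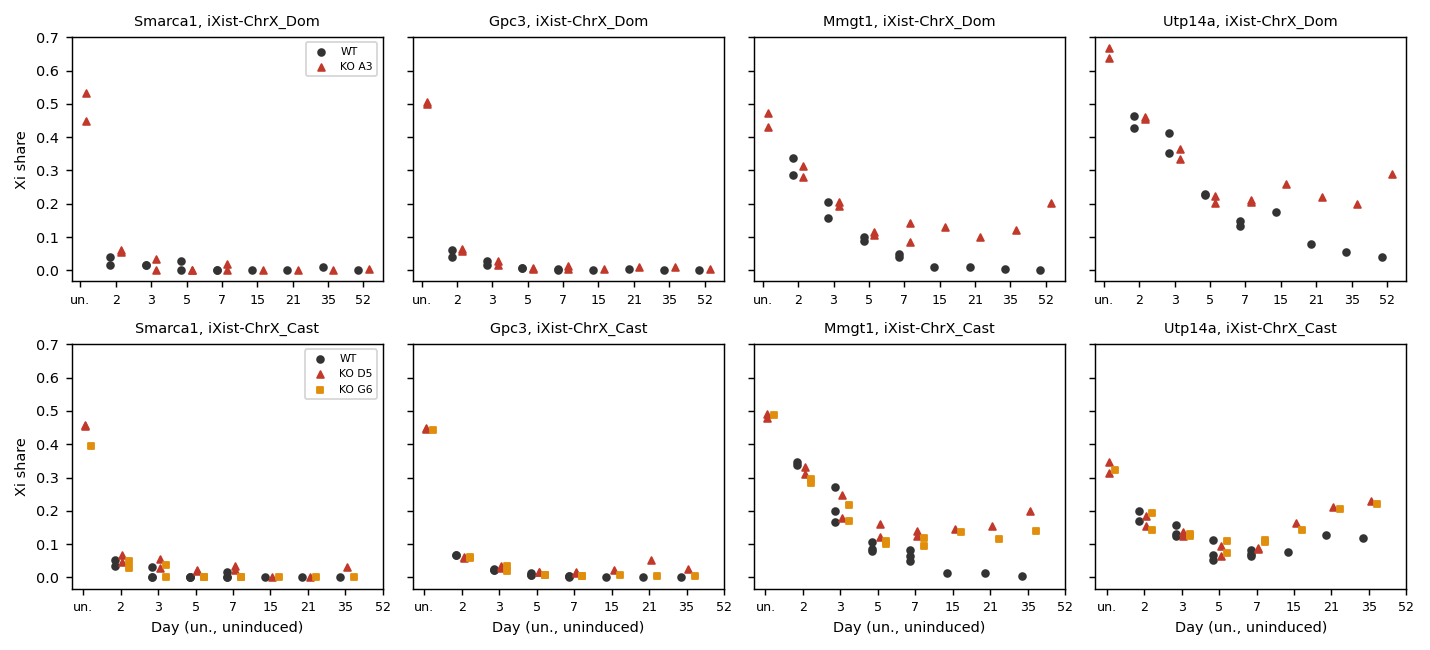
Xi share of Smarca1, Gpc3, Mmgt1 and Utp14a by day in each replicate, with days as equal steps and un. for uninduced. Smarca1 and Gpc3 are below 0.07 from day 2 on in every clone, while Mmgt1 and Utp14a separate KO from WT at day 15 and later.

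Zbtb33 (chrX:38189792-38197046, plus strand), whose protein binds methylated CpG, had no Xi fragment in any late WT library of either line. The counts behind this were small, 0 of 47, 23, 34 and 24 fragments in iXist-ChrX_Dom, which allow shares of up to 0.0638, 0.13, 0.0882 and 0.125, and 0 of 24, 22 and 16 in iXist-ChrX_Cast. In A3 the share was 0.0972, 0.0294, 0.0667 and 0.375 at days 15, 21, 35 and 52, the last from 9 of 24 fragments (Wilson interval 0.212 to 0.573). It was 0.0278, 0.121 and 0.190 in D5 and 0.114, 0.167 and 0.123 in G6. Every KO library had Xi fragments and none of the WT libraries did, but several KO shares lie under the limits that the WT counts allow. The differences were 0.142 ± 0.0653 (limma, adjusted p = 0.257) and 0.124 ± 0.0288 (adjusted p = 0.0569).

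Rbmx2 (chrX:48695003-48710719, plus strand) had the largest difference in iXist-ChrX_Dom and a small one in iXist-ChrX_Cast. In iXist-ChrX_Dom its WT share was 0.101, 0.155, 0.157 and 0.117 and its A3 share 0.355, 0.230, 0.260 and 0.414, from 29 to 79 fragments. In iXist-ChrX_Cast, WT had 0 of 120, 72 and 101 fragments, D5 had shares of 0.0276, 0.0326 and 0.0130, and G6 had 0.0153, 0.0115 and 0.0377. The groups did not overlap in either line, and WT cells of iXist-ChrX_Dom were above every KO library of iXist-ChrX_Cast. The difference was 0.182 ± 0.0476 (limma, adjusted p = 0.129) in iXist-ChrX_Dom and 0.0229 ± 0.00807 (adjusted p = 0.141) in iXist-ChrX_Cast. The KO effect was 0.159 ± 0.0456 larger in iXist-ChrX_Dom (limma interaction, unadjusted p = 0.00564, adjusted p = 0.613). Of 46 genes of the interval, 0 passed this test between lines (1 of 227 of all genes, 0.441%), and Rbmx2 was the only 1 under 0.05 unadjusted.

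**Figure D5:**
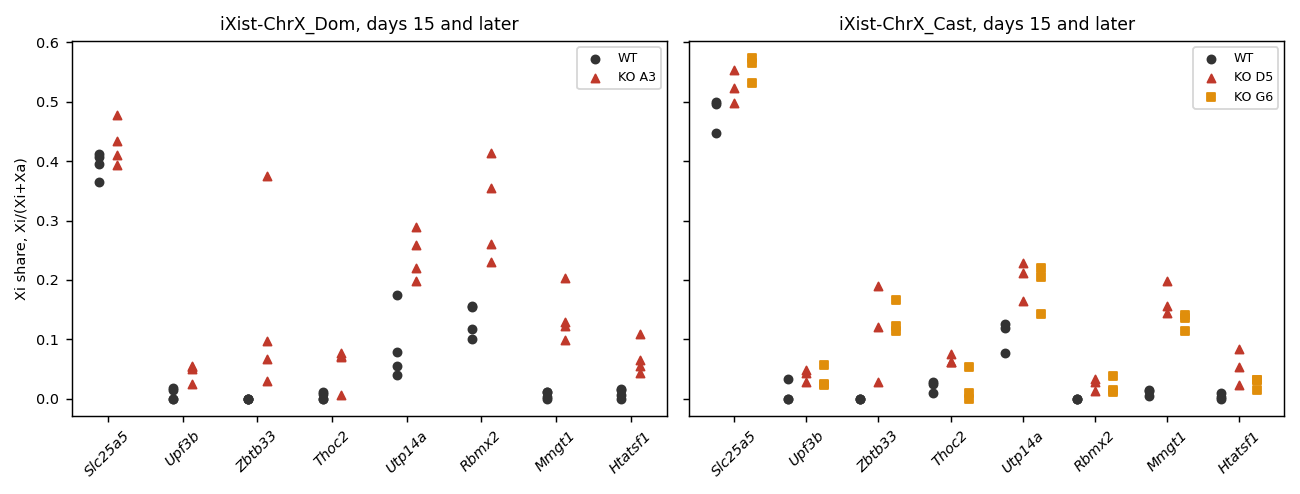
Xi share in each library of day 15 and later, by clone, for the 8 genes of the interval among the 10 largest late differences of both lines. Every KO point lies above every WT point for Zbtb33, Utp14a, Rbmx2, Mmgt1 and Htatsf1 in both lines, and Slc25a5 lies between 0.365 and 0.574 in all libraries.

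The RNA processing genes as a group had the largest late differences, with a median of 0.0443 in iXist-ChrX_Dom (8 of 8 above 0) and 0.0232 in iXist-ChrX_Cast (6 of 7 above 0), against medians of 0.0137 and 0.00641 over all genes. Only Utp14a among them passed the test, in iXist-ChrX_Cast. Htatsf1 was 0.0146, 0.0167, 0.00647 and 0 in iXist-ChrX_Dom WT and 0.0646, 0.0549, 0.0437 and 0.108 in A3, a difference of 0.0584 ± 0.0211 (limma, adjusted p = 0.174). In iXist-ChrX_Cast it was 0.0100 or less in WT and 0.0147 to 0.0831 in KO, with a difference of 0.0353 ± 0.0137 (adjusted p = 0.181). Upf3b had 0.0175 or less in iXist-ChrX_Dom WT and 0.0244 to 0.0549 in A3, and the difference was 0.0372 ± 0.0118 (adjusted p = 0.164). Thoc2 was 0.0109 or less in WT of iXist-ChrX_Dom, 0.00654 in A3 at day 15 and 0.0707, 0.0763 and 0.0714 in A3 after it, a difference of 0.0515 ± 0.0196 (adjusted p = 0.183). In iXist-ChrX_Cast, Thoc2 was 0.0613, 0.0625 and 0.0759 in D5 and 0.0534, 0 and 0.00970 in G6, against 0.0280, 0.00935 and 0.0247 in WT, so that G6 at days 21 and 35 did not exceed WT. Rbmx, the fast gene of this group, differed by 0.0019 and 0.0043.

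The largest late difference outside the genes above was that of 6330419J24Rik, a gene of the other and noncoding group, in iXist-ChrX_Dom. Its share there was 0.0690, 0.106, 0.195 and 0 in WT and 0.2, 0.0645, 0.133 and 0.5 in A3 at days 15, 21, 35 and 52, from 2 to 47 fragments, the highest from 1 of 2. The groups overlapped, and the difference was 0.132 ± 0.105 (limma, adjusted p = 0.459). In iXist-ChrX_Cast no Xi fragment of this gene was counted in any late library, from 7 to 64 fragments. Cell surface and development genes had medians of 0.00314 and 0.00382. Gpc3, with 3428 to 38468 fragments a late library and so the most precise shares, was 0.00195 to 0.00339 in iXist-ChrX_Dom WT and 0.0035, 0.0103, 0.0108 and 0.00292 in A3, which overlap. In iXist-ChrX_Cast, Gpc3 was 0.002, 0.00223 and 0.00228 in WT, 0.00585, 0.00518 and 0.00422 in G6 and 0.0233, 0.0528 and 0.0241 in D5. All 6 KO values were above all 3 WT values, and those of D5 were several times those of G6, yet the difference of 0.0171 had an adjusted p of 0.389. Chromatin and transcription genes had medians of 0.00318 and 0.00446, with Zbtb33 the single member above 0.05. Smarca1 had at most 1 Xi fragment in any late library but D5 at day 35 (3 of 98).

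Among genes of cell death and metabolism, Xiap had 0.00161 to 0.00397 in iXist-ChrX_Dom WT and 0.00677, 0.0295, 0.0427 and 0.0580 in A3 at days 15, 21, 35 and 52, without overlap. Its difference was 0.0316 ± 0.0102 (limma, adjusted p = 0.164). Enox2, a cell surface NADH oxidase with 2124 to 3628 fragments, had 0.00286 to 0.00589 in WT and 0.0149, 0.0185, 0.0226 and 0.0187 in A3, a difference of 0.0143 ± 0.00302 (adjusted p = 0.0995). The A3 values did not overlap those of WT, and the difference did not pass the threshold. In iXist-ChrX_Cast, Enox2 was 0.00214 to 0.00241 in WT, 0.00930, 0.0113 and 0.0197 in D5 and 0.00469, 0.00351 and 0.00193 in G6, which overlap WT. The lowest late differences were those of Tenm1 in iXist-ChrX_Dom, with 0.0185 to 0.0769 in WT and 0 to 0.0159 in A3 from 8 to 153 fragments (difference -0.0404 ± 0.0140, adjusted p = 0.174), and of Mcf2 in iXist-ChrX_Cast (-0.00671). Tenm1 was the only gene of the interval whose WT libraries all lay above its KO libraries (0.42% of all genes in iXist-ChrX_Dom). Slc25a5 differed by 0.0341 ± 0.0233 in iXist-ChrX_Dom (adjusted p = 0.430) and 0.0601 ± 0.0243 in iXist-ChrX_Cast (adjusted p = 0.192).

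The KO clones of iXist-ChrX_Cast were compared with each other. At day 15 and later the median over the interval was 0.0113, 0.0152 and 0.0174 in D5 and 0.00998, 0.00294 and 0.00441 in G6 at days 15, 21 and 35, against 0.00408, 0.00267 and 0.00109 in WT. D5 was above G6 for 38 of 49 genes, with a median difference of 0.00602 (0.00290 over all genes). None of the 49 genes differed at an adjusted p of 0.05 by limma (0 of 391 of all genes, 0%), and 11 were under 0.05 unadjusted.

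At days 2 and 3, 0 genes of the interval differed between KO and WT in either line by limma (0 of 246 and 0 of 399 of all genes, 0%), with 2 in each line under 0.05 unadjusted. At days 5 and 7, 0 of 52 passed in iXist-ChrX_Dom (18 of 246 of all genes, 7.32%), with 5 under 0.05 unadjusted and a median difference of -0.000262. The nearest to the threshold was Pgrmc1, a haem-binding membrane protein, which was lower in KO (difference -0.0587 ± 0.0142, adjusted p = 0.05001). Its shares at days 5 and 7 were 0 in all 4 A3 replicates and 0.02 to 0.104 in WT. In iXist-ChrX_Cast 0 of 50 passed (2 of 399 of all genes, 0.501%), with 10 under 0.05 unadjusted, and 43 of 50 differences were above 0 (median 0.00874, against 0.00590 over all genes).

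With D5 alone set against WT at days 5 and 7, 12 of 50 genes passed (28 of 399 of all genes, 7.02%), and with G6 alone 0 did, over the same WT libraries. The count over all genes is given for D5 only, and nothing is read from the 0 in G6. The 12 were Zbtb33, Thoc2, Smarca1, Zfp280c, Enox2, Igsf1, Fam122b, Ddx26b, Mmgt1, Mtap7d3 and Htatsf1, which were higher in D5, and Mcf2, which was lower. The median over the interval at day 7 was 0.0367 and 0.0255 in D5, 0.0159 and 0.0127 in G6 and 0.00667, 0.0134 and 0.0162 in WT. The D5 replicates thus stood above the other clones.

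Total RNA, all fragments of a gene whichever the allele, was compared as a readout that the choice by position did not use. Over days 2 to 7, edgeR's quasi-likelihood test passed 1 of the 52 genes in iXist-ChrX_Dom (123 of 14782 of all genes, 0.832%, with 0.392% higher and 0.44% lower). It passed 0 of 52 in iXist-ChrX_Cast (65 of 14803, 0.439%), and 8 and 2 genes of the interval were under 0.05 unadjusted. The gene was Dock11, a guanine nucleotide exchange factor for Cdc42, with 172.5, 225.4 and 289 RPM in WT (lowest, median and highest of 8) and 199.1, 280.4 and 451 RPM in A3. The ranges overlapped, and the log2 fold change within days was 0.37 ± 0.08 (SE, adjusted p = 0.0435), a call that was lost in 14 of 22 alternatives (0.31 to 0.39). Gria3, an AMPA-type glutamate receptor subunit, followed with 0.54 ± 0.12 (adjusted p = 0.0556). In iXist-ChrX_Cast the log2 fold changes of these genes were 0.02 ± 0.10 and 0.00 ± 0.10.

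At day 15 and later 0 of 52 genes passed with edgeR in either line (0 of 14475 and 0 of 14562 of all genes, 0%), while 4 and 8 of the interval and 1578 and 1847 of all genes were under 0.05 unadjusted. DESeq2 called 194 and 422 of all genes and 0 and 2 of the interval (Mbnl3 and Fhl1 in iXist-ChrX_Cast). Among the genes with large late differences in Xi share, Zbtb33 had log2 fold changes of 0.23 ± 0.13 (SE) in iXist-ChrX_Dom and 0.43 ± 0.16 in iXist-ChrX_Cast (edgeR, unadjusted p = 0.0269, adjusted p = 0.356). Htatsf1 had -0.03 ± 0.11 and 0.32 ± 0.15, and Rbmx2 had -0.18 ± 0.21 and 0.06 ± 0.19. Mmgt1 had log2 fold changes of -0.18 ± 0.19 in iXist-ChrX_Dom and 0.08 ± 0.29 in iXist-ChrX_Cast, and Utp14a had -0.09 ± 0.15 and -0.20 ± 0.26. Mmgt1 was 28.1 to 35.6 RPM in late WT and 12.9 to 40.7 RPM in late A3 libraries, and Utp14a was 35.4 to 71.1 and 26.8 to 62.3 RPM, so both overlapped. The median log2 fold change over the interval was 0.07 in iXist-ChrX_Dom (0.00 over all genes, with the interval at -0.06 and all genes at -0.13 when scaled by library totals) and 0.12 in iXist-ChrX_Cast (-0.01 over all genes).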

How the data were processed

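ChrRNA-seq was analysed in 72 libraries. Per the labels and the study's methods, the authors removed ribosomal reads with Bowtie2 2.3.2, used STAR 2.4.2a to align read pairs to mm10 with its allelic positions masked, assigned reads to alleles (SNPsplit) and counted the fragments of each gene, introns included, with featureCounts, using strand. The deposited counts are whole-number fragment counts for all reads and for each allele, and the deposited allelic ratios are a fraction, Xi/(Xi+Xa). The Cast ratios differed from those of the counts by at most 5.00e-16 at 18337 values. The 26 value columns of the Dom table carry names of Cast libraries and were not used. Only its gene list was used, with ratios from the counts.

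R1 and R2 libraries of a replicate were merged (65 replicates). Xi shares were compared with limma 3.58.1 (trend, day as a factor, Benjamini-Hochberg adjustment over all listed genes, threshold 0.05) in R 4.3.3, total RNA with edgeR 4.0.16 and, as an alternative, DESeq2 1.42.0, and half-times with minpack.lm 1.2.4. Where a gene's shares did not vary, limma offset its zero variance. The scripts were tested on simulated data. Intervals (Wilson, 95%) and the limit of 3 counts behind a count of 0 cover counting error only. The named genes were those passing a test, those at either end of the late differences, half-times and late WT shares in each line, the deepest of each group and those in 1 table, with neighbours and further examples of each group added after their values were seen. Members, groups and lists were chosen with earlier results of these data known. Same-numbered replicates did not deviate together throughout (r of total RNA -0.77 to 0.82, of the Xi share -0.36 to 0.19), so no pairing was used. A few genes are not reported singly here and enter counts and medians only.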

Additional observations from a re-analysis of the deposited data

Results flagged for a closer look

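The change of the KO effect from days 2 and 3 to day 15 and later passed the limma interaction test at Utp14a (0.164 in iXist-ChrX_Dom, 0.1002 in iXist-ChrX_Cast) and at Mmgt1 (0.129 and 0.159), which is why these 2 genes are listed here as differing between periods.

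Single libraries also stood apart from the other late libraries of their group by Dixon's criterion. Of 84 late groups, 14 held such a library, and these were groups of 4 or 6 libraries. The rate of 1 in 20 by chance holds for values with a normal spread. Groups with most shares at 0 do not have one, so nothing is read from the number flagged. In iXist-ChrX_Dom WT they were Pgrmc1 at day 15 (Xi share 0.0163934), Smarca1 at day 35 (0.0111111), Xpnpep2 at day 21 (0.0625) and 2610018G03Rik at day 52 (0.0352941). In A3 they were Thoc2 at day 15 (0.00653595), Igsf1 at day 15 (0.2), Mtap7d3 at day 35 (0.0555556), Smarca1 at day 52 (0.00280899) and Mcf2 at day 52 (0.0). In the KO libraries of iXist-ChrX_Cast all were of D5, with Xpnpep2 at day 15 (0.0434783), Mtap7d3 at day 15 (0.00990099), Elf4 at day 21 (0.0225564), Gm364 at day 21 (0.142857) and Smarca1 at day 35 (0.0306122). Several of these groups hold a single library above 0, from genes with few fragments. Their causes were not tested.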

How the results depend on the processing

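The late calls depended on the setting more than their direction did, which was the same for every called gene under every alternative run. The counts that follow cover the interval alone, and a setting may call more or fewer genes everywhere. Nothing about the interval is therefore read from a change in them. In iXist-ChrX_Dom the 0 late calls became 2 on the arcsine scale (Fam122b, Mmgt1), 3 with a quasi-binomial model (Xiap, Enox2, Mmgt1) and 4 with 1 fit over all induced libraries (Thoc2, Utp14a, Rbmx2, Mmgt1). In iXist-ChrX_Cast the 2 late calls became 6 on the arcsine scale, 0 with D5 alone, 0 with G6 alone and, in alternatives chosen after seeing the data, 0 without day 15, 0 without day 21 and 1 without day 35 (fewer samples in each of these). Leaving out 1 replicate gave 0 to 3 calls, 0 without any WT library. Over 19 alternatives Utp14a had adjusted p of 1.71976e-05 to 0.167943 and was called in 11, and Mmgt1 had 6.48678e-06 to 0.158857 and was called in 12. The late against early test gave 6 in each line on the arcsine scale and, without 1 replicate, 0 to 3 (iXist-ChrX_Dom) and 2 to 3 (iXist-ChrX_Cast). In iXist-ChrX_Dom its adjusted p ran from 0.010344 to 0.0852047 for Utp14a and from 0.00255188 to 0.106176 for Mmgt1. At days 5 and 7, Pgrmc1 was called in iXist-ChrX_Dom on the arcsine scale and with at least 10 fragments in every replicate (1 each), and in iXist-ChrX_Cast there were 12 calls with D5 alone and 0 to 1 without 1 replicate. Total RNA of iXist-ChrX_Dom at days 2 to 7 gave 2 calls with DESeq2, 2 without the filter on low counts and 0 to 2 without 1 replicate, and Dock11 had adjusted p of 0.000990188 to 0.110682. Late total RNA of iXist-ChrX_Cast gave 2 with DESeq2. The median half-time was 1.44502 and 1.15853 days without the uninduced point and 1.10714 and 0.97273 days with a free plateau, and 1.26071 to 1.36265 and 1.04752 to 1.1084 days without 1 replicate. Causes of these shifts were not tested.

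Replicate numbers did not pair the samples. With a replicate block, calls stayed at 0 at days 2 and 3 in both lines and at days 5 and 7 in iXist-ChrX_Dom, were 1 at days 5 and 7 in iXist-ChrX_Cast (Mmgt1; 17 of all genes against 2), and for total RNA were 0 in both lines (135 against 123 and 209 against 65 of all genes). Total RNA of A3 correlated negatively with same-numbered WT replicates, and a crossed replicate block, chosen after seeing the data, gave 3 calls there (533 of all genes). The late libraries, 1 a day in each clone, were compared with day as a factor. Depth limits the genes with under 10 allelic fragments in some late library (9 for iXist-ChrX_Dom, 6 for iXist-ChrX_Cast), such as Igsf1, Kis2 and 6330419J24Rik, and among genes with large late differences Zbtb33 and Rbmx2, with medians of 32 and 59 fragments in iXist-ChrX_Dom.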

Other observations

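The total output of the interval, all alleles together, was lower in the first week of Xist induction than before it. Summed over the 52 genes it was 8447.5 and 8476.9 RPM in the uninduced A3 libraries and 4827.4 to 7184.5 RPM in A3 at days 2 to 7 (n = 8), and 7088 to 8272.4 RPM (n = 3) against 4849.4 to 6751.8 RPM (n = 16) in the KO clones of iXist-ChrX_Cast. At day 15 and later it was 6034.2 to 7087.6 RPM in A3, below both uninduced libraries. In D5 and G6 it was then 5912.9 to 7464.8 RPM, which overlapped the uninduced range. The ranges before and in the first week did not overlap in either line, and differentiation ran together with induction, so that their effects cannot be told apart.

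Single genes moved differently from this sum in late cells. Gpc3 was 1160.2 and 1311.4 RPM in uninduced A3, 1130.37 to 1367.48 RPM in late WT and 235.902 to 2037.77 RPM in late A3. Gria3 was 122.389 and 140.41 RPM in uninduced A3 and 467.105 to 1513.8 RPM in late A3. Slc25a5, with both alleles read throughout, was 205.168 and 224.1 RPM in uninduced A3 and 15.5788 to 36.6228 RPM in late A3. Utp14a was 205.692 and 229.423 RPM and then 26.7834 to 62.2754 RPM. These are values with no test.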
